A study of Mus musculus with 6 samples.

Results

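The genes described here are the receptors for the myeloid colony-stimulating factors (Csf1r, Csf2ra, Csf2rb and Csf3r), their ligands (Csf1, Il34, Csf2 and Csf3) and Spi1. They were taken by name, and all 9 were found among the 25722 genes listed in each count table. Of these 9 genes, 7 were among the 13842 genes with enough reads to be tested, while Csf2 and Csf3 were below the filter and are given by their counts only. The RNA came from BMSCs, adherent cells grown from the tibia and femur marrow of C57BL/6 mice and used before the third passage, in low-glucose DMEM with 20% serum, 10 µM ROCK inhibitor, 5% O2 and 5% CO2. Of the 6 libraries, 3 came from controls given DMSO, the solvent, and 3 from cultures given all-trans retinoic acid (RA). The labels give 1 µM RA and 48 h, while the paper's methods give a lower dose and a shorter time. The labels mention 2 biological replicates, while each group here has 3 libraries, and they do not say which cultures came from separate mice, so that each p-value measures the spread between these libraries only.

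CSF-1 is the main growth and survival factor of monocytes, macrophages and osteoclasts, and its receptor CSF1R is a tyrosine kinase found mostly on these cells. IL-34 is a second ligand of CSF1R with an unrelated sequence. In bone marrow, stromal cells are a known source of CSF-1, and the macrophages that respond to it carry the receptor. GM-CSF (Csf2) acts through a complex of its own α chain (Csf2ra) and a β chain (Csf2rb) that IL-3 and IL-5 share, and G-CSF (Csf3) acts through Csf3r, which marks neutrophils and their precursors. PU.1, the product of Spi1, is the transcription factor needed for the myeloid lineage, and the genes of these receptors are known among its targets.

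RefSeq promoters of GRCm38.p6, which run from 250 bases before to 50 bases after the start site, were held for 4 of the 9 genes (Csf1, Csf2, Csf2ra and Csf3r) and were searched on both strands for GAGGAA, the core of the PU.1 motif. These letters stood in 2 of the 4, in Csf2ra and Csf3r, and in 28.3% of all 32851 promoters. The sequences below are those of the receptors with a match, Csf2ra and Csf3r, and of the ligand Csf1 for comparison. Each is printed 5′ to 3′ along the gene, with the match in capitals. The Csf2ra stretch lies on the minus strand of chromosome 19 from 61228419 to 61228668 and ends at the last base before the RefSeq start site, with 2 matches that begin 14 and 8 bases before that site. GENCODE M21 has exon over the last 11 bases of this stretch, so that the second match and part of the first lie inside the annotated gene. The Csf3r stretch lies on the plus strand of chromosome 4 from 126024409 to 126024578, with a match that begins 86 bases before the RefSeq start site. GENCODE M21 has 109 exon bases before that site, and the Csf3r match lies within them. The Csf1 stretch lies on the minus strand of chromosome 3 from 107760470 to 107760719 and holds no match. A match is a description of the letters only.
Csf2ra: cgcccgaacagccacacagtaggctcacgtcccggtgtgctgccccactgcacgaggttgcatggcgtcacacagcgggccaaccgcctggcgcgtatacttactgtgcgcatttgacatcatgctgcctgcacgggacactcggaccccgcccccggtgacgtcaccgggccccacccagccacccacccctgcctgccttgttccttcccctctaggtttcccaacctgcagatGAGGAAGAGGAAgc
Csf3r: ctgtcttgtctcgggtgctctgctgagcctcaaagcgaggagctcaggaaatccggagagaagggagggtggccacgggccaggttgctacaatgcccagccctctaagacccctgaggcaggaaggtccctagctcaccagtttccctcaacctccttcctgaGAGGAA
Csf1: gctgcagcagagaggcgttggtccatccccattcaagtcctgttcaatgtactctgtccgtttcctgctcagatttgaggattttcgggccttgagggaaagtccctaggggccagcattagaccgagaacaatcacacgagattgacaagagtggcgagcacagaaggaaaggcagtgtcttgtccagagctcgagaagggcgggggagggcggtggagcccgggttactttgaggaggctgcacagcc

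The libraries held between 14737636 and 18511905 counts. Levels are given as CPM, counts scaled to the library total after TMM adjustment, and 3 counts corresponded to between 0.160 and 0.210 CPM in a library. Treatment was not the main split among the libraries. On the 1000 most variable genes, the leading principal component held 57.2% of the variance and parted DMSO 2, RA 1 and RA 2 (library set 1) from DMSO 1, DMSO 3 and RA 3 (library set 2). The labels name no batch, and the sets were read from the same expression values, so that differences between them are described and not tested. Of 8 tested genes known to respond to RA, 6 had an unadjusted p under 0.05, all higher in the libraries labelled RA. Of the 8, edgeR called 1, edgeR adjusted for library set 5 and DESeq2 6. The first of these, the RA-degrading enzyme Cyp26b1, went from 5.20 ± 0.670 CPM (SD, n = 3) to 106.8 ± 18.4 (SD, n = 3), with an edgeR adjusted p of 0.00207. Tgm2, Rarb and Dhrs3 also had higher means, from 68.2, 0.370 and 136.9 CPM in DMSO to 212.3, 5.84 and 171 CPM in RA.

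The cultures labelled as BM-MSCs held both stromal and macrophage transcripts. The 15 macrophage markers looked at, Lyz2, Adgre1 and Itgam among them, summed to between 11159 and 12464 RPKM (CPM per kilobase of merged exon) in a library, and none of them was at 0 in any library. The 15 stromal markers, Col1a1, Col1a2 and Cxcl12 among them, summed to between 224 and 576 RPKM. Thy1 and Lum were at 0 in at least 1 library, and Thy1, Lum and Nt5e were below the filter. Neutrophil, dendritic cell, lymphoid and endothelial markers each summed to at most 7.34 RPKM, and 0 of their 10 tested genes were called (among them S100a8, Camp, Itgax, Xcr1, Cd4, Pecam1, Cdh5 and Kdr). Monocyte markers, which include Plac8, F13a1 and Ccr2, summed to 5.92 to 18.6 RPKM, erythroid and megakaryocyte markers, with Pf4 and Gp1bb, to 13.3 to 63.5, and osteoclast markers, with Mmp9, Nfatc1 and Acp5, to 48.2 to 118.7. Which cells the reads of each gene came from cannot be told apart in bulk RNA, and fewer cells of a type cannot be told apart from less RNA per cell.

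Per kilobase of exon, the receptor of CSF-1 and PU.1 stood far above the ligands. Spi1 was highest, at 285.1 ± 41.8 RPKM in DMSO and 237.9 ± 39.4 in RA (SD, n = 3 each), and lay between the 98.8 and 99.2 percentiles of all tested genes. Csf1r followed at 193.1 ± 30.5 and 201.3 ± 36.1 RPKM, between the 98.3 and 99.0 percentiles. Next came Csf2ra with 61.6 ± 2.64 and 43.2 ± 9.54 RPKM, Csf1 with 34.8 ± 20.9 and 20.4 ± 9.05, and Csf2rb with 12.9 ± 2.11 and 14.7 ± 3.78. Csf3r stood at the 52.0 to 65.0 percentiles, with 7.69 ± 2.03 and 7.43 ± 1.44 RPKM, and Il34 was lower still, at 1.94 ± 0.944 and 1.04 ± 0.537. Spi1 was above Csf1r in 6 of 6 libraries, by 1.15 to 1.70 times, and Csf1r above Csf2ra in 6 of 6, by 2.77 to 5.33 times. The neighbours Csf2ra and Csf1 were nearly level in DMSO 2, where their ratio was 1.01. Csf1 and Csf2rb changed places in RA 3, where Csf1 was 0.735 times Csf2rb. With the longest transcript as length in place of the merged exons, the order of the means was the same.

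**Figure D1:**
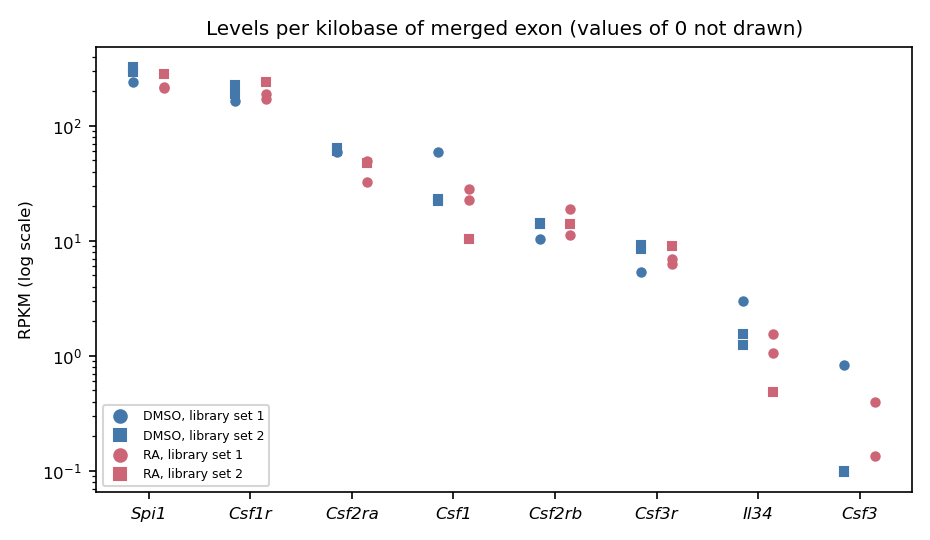
Level of each gene in each library, in RPKM on a log axis, ordered by the mean over the 6 libraries. DMSO libraries are blue, RA libraries are red, circles are library set 1 and squares library set 2. Spi1 and Csf1r lie at or above 164 RPKM in every library and Il34 and Csf3 at or below 3.01. Csf2 is not drawn.

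Csf1r (ENSMUSG00000024621, chromosome 18 of GRCm38 from 61100598 to 61132149) was abundant and steady. It had 1100.2, 947 and 1298 CPM in DMSO 1 to 3 and 1098, 994 and 1396 CPM in RA 1 to 3. The groups overlapped throughout, and both groups had their highest value in a library of set 2. Between the groups the log2 fold change was 0.06 (standard error 0.19, 95% interval -0.40 to 0.52), with an edgeR adjusted p of 0.943. Within library set 1 it was 0.14 and within set 2 it was 0.22, and every RA library stood above the DMSO libraries of its own set. Adjusted for library set, it was 0.18 (95% interval -0.04 to 0.41, edgeR adjusted p = 0.407). The sign was not stable, since it was -0.03 without DMSO 2 and -0.09 without RA 3. Csf1r shares 873 exon bases with Hmgxb3 on the opposite strand, and the strand setting of the counting is not given in the sources used here. Hmgxb3 itself had at most 1011 counts in a library, against at least 15670 for Csf1r.

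Csf2ra, the ligand-binding chain of the GM-CSF receptor (ENSMUSG00000059326, chromosome 19 from 61223957 to 61228429), was the only tested gene of the axis whose treatment groups did not overlap. It had 175.1, 170.1 and 185.0 CPM in DMSO 1 to 3 and 143.4, 92.7 and 136.1 CPM in RA 1 to 3. All 3 controls lay close together, and RA 2 was the lowest library. Such a separation was seen in 1 of the 7 genes and in 12.6% of all tested genes, shares that are close. The log2 fold change was -0.51 (standard error 0.18, 95% interval -0.94 to -0.08), with an unadjusted p of 0.0261 and an adjusted p of 0.795 from edgeR. It did not pass the threshold. An unadjusted p under 0.05 was found in 1 of the 7 genes and in 5.25% of all tested genes. It was -0.56 within set 1, -0.40 within set 2, and -0.47 after adjustment for library set (edgeR adjusted p = 0.249). Leaving out each library in turn moved it between -0.60 and -0.34, the latter without RA 2.

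Csf2rb, the signalling β chain that pairs with Csf2ra (ENSMUSG00000071713, chromosome 15 from 78325752 to 78353847), went the other way in its mean without passing the test. It had 101.0, 76.2 and 104.2 CPM in DMSO 1 to 3 and 136.8, 82.3 and 102.8 CPM in RA 1 to 3. The groups overlapped, and the mean after RA was raised mostly by RA 1. The log2 fold change was 0.19 (standard error 0.22, 95% interval -0.33 to 0.72, edgeR adjusted p = 0.836), and without RA 1 it was 0.004. Csf2rb2, the neighbouring gene for the β chain used by mouse IL-3, shares 12.3% of the 50-base stretches of the Csf2rb transcripts, so that the counting could have split reads between both. It had 43.2, 23.8 and 45.3 CPM in DMSO and 53.5, 28.2 and 47.1 CPM in RA, with RA 1 highest and DMSO 2 lowest as for Csf2rb. Its log2 fold change was 0.20 (edgeR adjusted p = 0.880).

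Within a library, the level of Csf2ra relative to its partner chain did not overlap between treatments. The ratio of Csf2ra to Csf2rb in RPKM was 4.39, 5.66 and 4.50 in DMSO 1 to 3 and 2.66, 2.86 and 3.36 in RA 1 to 3. The lowest control lay above the highest RA library. The same held in the other direction for Csf1r to Csf2ra, with 3.12, 2.77 and 3.49 in DMSO and 3.81, 5.33 and 5.10 in RA, so that the separation was not particular to the pair of chains. The ratio of Spi1 to Csf1r also did not overlap between the groups, with 1.70, 1.47 and 1.30 in DMSO and 1.15, 1.23 and 1.17 in RA. These ratios were chosen after the values of the genes had been seen, and 3 libraries against 3 cannot give a two-sided exact permutation p below 0.10, so they are descriptions. The ratio of Csf1 to its receptor overlapped, with 0.117, 0.359 and 0.104 in DMSO and 0.147, 0.132 and 0.0430 in RA.

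**Figure D2:**
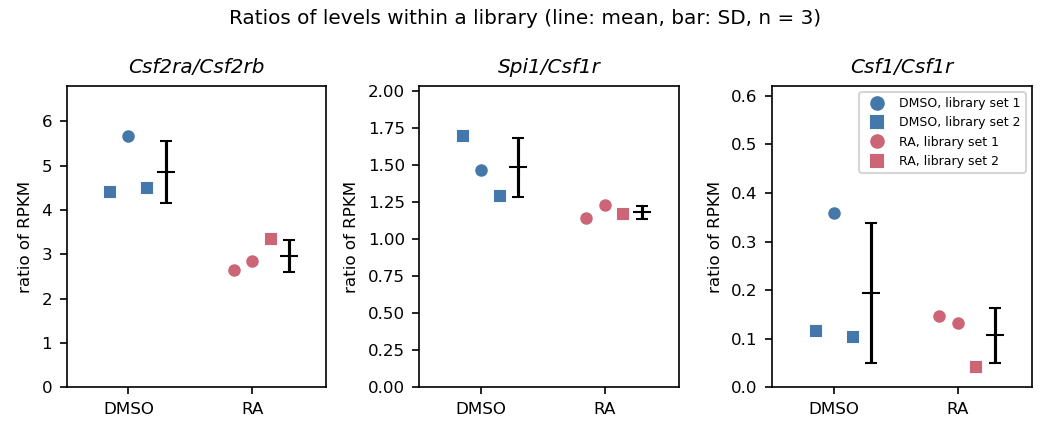
Ratio of levels per kilobase for Csf2ra to Csf2rb, Spi1 to Csf1r and Csf1 to Csf1r, 1 point per library, with the mean and SD of each group of 3. Blue is DMSO, red is RA, circles are library set 1 and squares set 2. In the first panel all DMSO libraries are at 4.39 or above and all RA libraries at 3.36 or below, while the third panel overlaps.

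Csf3r, the G-CSF receptor (ENSMUSG00000028859, chromosome 4 from 126024550 to 126044440), followed the library sets rather than the treatment. It had 33.1, 19.4 and 30.7 CPM in DMSO 1 to 3 and 22.6, 25.3 and 32.6 CPM in RA 1 to 3. The 3 libraries of set 2 lay between 30.7 and 33.1 CPM and those of set 1 between 19.4 and 25.3, without overlap. Its log2 fold change after RA was -0.05 (standard error 0.24, 95% interval -0.63 to 0.54, edgeR adjusted p = 0.966), and it was 0.16 after adjustment for library set. Of the 11 neutrophil markers, Ly6g, Mpo and Elane were not among the listed genes and 4 passed the filter. The highest of them by mean, Mmp8, had 1.57 ± 0.203 CPM in DMSO (SD, n = 3).

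Csf1 (ENSMUSG00000014599, chromosome 3 from 107741048 to 107760469) had the lower mean after RA and lay lower in both library sets. It had 117.4, 311.3 and 123.2 CPM in DMSO 1 to 3 and 147.9, 120.2 and 54.9 CPM in RA 1 to 3. DMSO 2 was the highest and RA 3 the lowest library, 5.67 times apart, and the groups overlapped. Across all libraries the log2 fold change was -0.77 (standard error 0.50, 95% interval -1.96 to 0.42, edgeR adjusted p = 0.795), which was not called. This value rested on DMSO 2 and RA 3, since it was -0.15 without the former and -0.46 without the latter. Within library set 1 it was -1.22, where RA 1 and RA 2 lay below DMSO 2, and within set 2 it was -1.13, where RA 3 lay below DMSO 1 and DMSO 3. In a fit adjusted for library set, Csf1 was lower by a log2 fold change of -1.18 (standard error 0.10, 95% interval -1.41 to -0.94) with an edgeR adjusted p of 0.00274, a fall past the threshold. That fit called 1 of the 7 genes, against 1.54% of all tested genes. Csf1 stayed past the threshold in that fit when any 1 of the 6 libraries was left out, with log2 fold changes of -1.22 to -1.10 and adjusted p-values up to 0.0489. The sets had been read from the same expression values and were not derived again when a library was left out. These fits are therefore no independent support, and p-values adjusted for library set may be too small. Without DMSO 2 or without RA 3, 1 set holds a single treatment, and the difference then comes from the other set alone, with a lone library in 1 arm that is assumed to vary like the rest. Each set holds only 1 library of one of the groups, so the fit draws its spread from few libraries. DMSO 1 and DMSO 3 were far closer to each other than any other pair within a group. Chi-square of their counts per degree of freedom was 4.88, against 30.6 to 91.8 for the other pairs. Whether these 2 libraries came from separate mice is not given, so the standard error of Csf1 in this fit may be too small.

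Stromal collagen transcripts had their extremes in the same libraries as Csf1. Col1a1, which encodes a chain of type I collagen, had 732, 1648 and 779 CPM in DMSO 1 to 3 and 1131, 563 and 414 CPM in RA 1 to 3, with DMSO 2 highest and RA 3 lowest as for Csf1. Its log2 fold change was -1.05 within set 1 and -0.87 within set 2. Unlike Csf1, Col1a1 was called neither without the adjustment for library set (-0.58, edgeR adjusted p = 0.803) nor with it (-0.91, edgeR adjusted p = 0.138). The summed level of the 15 stromal markers was 308 to 576 RPKM in DMSO and 224 to 449 RPKM in RA. Of the 12 stromal markers that passed the filter, 5 lay lower and 4 higher after RA in every comparison within both sets, beside 23.5% and 18.5% of all tested genes. Cxcl12 and Lepr, marks of the marrow stroma that holds blood stem cells, had higher values in all 3 RA libraries than in all 3 controls (Cxcl12 408 ± 37.8 CPM in DMSO and 518 ± 58.2 in RA, edgeR adjusted p = 0.795). Ly6a had lower values in all 3 RA libraries, with 36.1 ± 2.99 and 19.3 ± 1.29 CPM (edgeR adjusted p = 0.172). Of the 12 tested stromal markers, 3 separated the groups upward and 1 downward, beside 12.6% of all tested genes in either direction. Lepr was scarcely detected in controls, with 7, 9 and 7 counts in DMSO 1 to 3. It had 45, 48 and 139 counts in RA 1 to 3 (edgeR adjusted p = 0.292), with RA 3 far above the others. After adjustment for library set Lepr was called higher and Ly6a lower (edgeR adjusted p = 0.00644 and 0.0152), as they were by DESeq2 without that adjustment. Dcn, which encodes decorin, had 3.04 ± 0.340 CPM in DMSO and 4.35 ± 0.583 in RA (edgeR adjusted p = 0.795). The part of stromal RNA content in the values of Csf1 was not tested.

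Il34, the second ligand of CSF1R (ENSMUSG00000031750, chromosome 8 from 110741829 to 110805924), had the same order of extremes as Csf1 at a far lower level. It had 2.45, 5.90 and 3.03 CPM in DMSO 1 to 3 and 3.06, 2.09 and 0.955 CPM in RA 1 to 3, from 14 to 111 counts. The groups overlapped, with DMSO 2 highest and RA 3 lowest. The log2 fold change was -0.89 (standard error 0.51, 95% interval -2.10 to 0.32, edgeR adjusted p = 0.795). Leaving out 1 library moved it between -1.29 (without RA 1) and -0.40 (without DMSO 2). It was -1.18 within set 1 and -1.40 within set 2. Adjusted for library set it was -1.31 (95% interval -1.91 to -0.71), with an edgeR adjusted p of 0.0594 that missed the threshold. In RPKM, Csf1 was 15.1 to 21.3 times Il34 in every library, a narrower range than either gene had on its own.

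Csf3 and Csf2, the ligands of the granulocyte and GM-CSF receptors, were scarcely detected. Csf3 (ENSMUSG00000038067) had 2, 22 and 2 counts in DMSO 1 to 3 and 10, 3 and 0 counts in RA 1 to 3. DMSO 2 was the highest library again. Csf2 (ENSMUSG00000018916) had 2 counts in DMSO 2 and 0 in each of the other libraries, below the limit of 3 counts that a count of 0 allows. No fold change is given for either gene.

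Spi1 (ENSMUSG00000002111, chromosome 2 from 91082390 to 91115756) had the lower mean after RA but was not called. It had 872, 648 and 785 CPM in DMSO 1 to 3 and 588, 571 and 763 CPM in RA 1 to 3. The sets parted it more than the treatment, with 763 to 872 CPM in set 2 and 571 to 648 in set 1, and within each set the RA libraries were the lower. The log2 fold change was -0.26 (standard error 0.18, 95% interval -0.69 to 0.17, edgeR adjusted p = 0.795). It was -0.16 within set 1 and -0.12 within set 2, and -0.14 after adjustment for library set (edgeR adjusted p = 0.435).

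**Figure D3:**
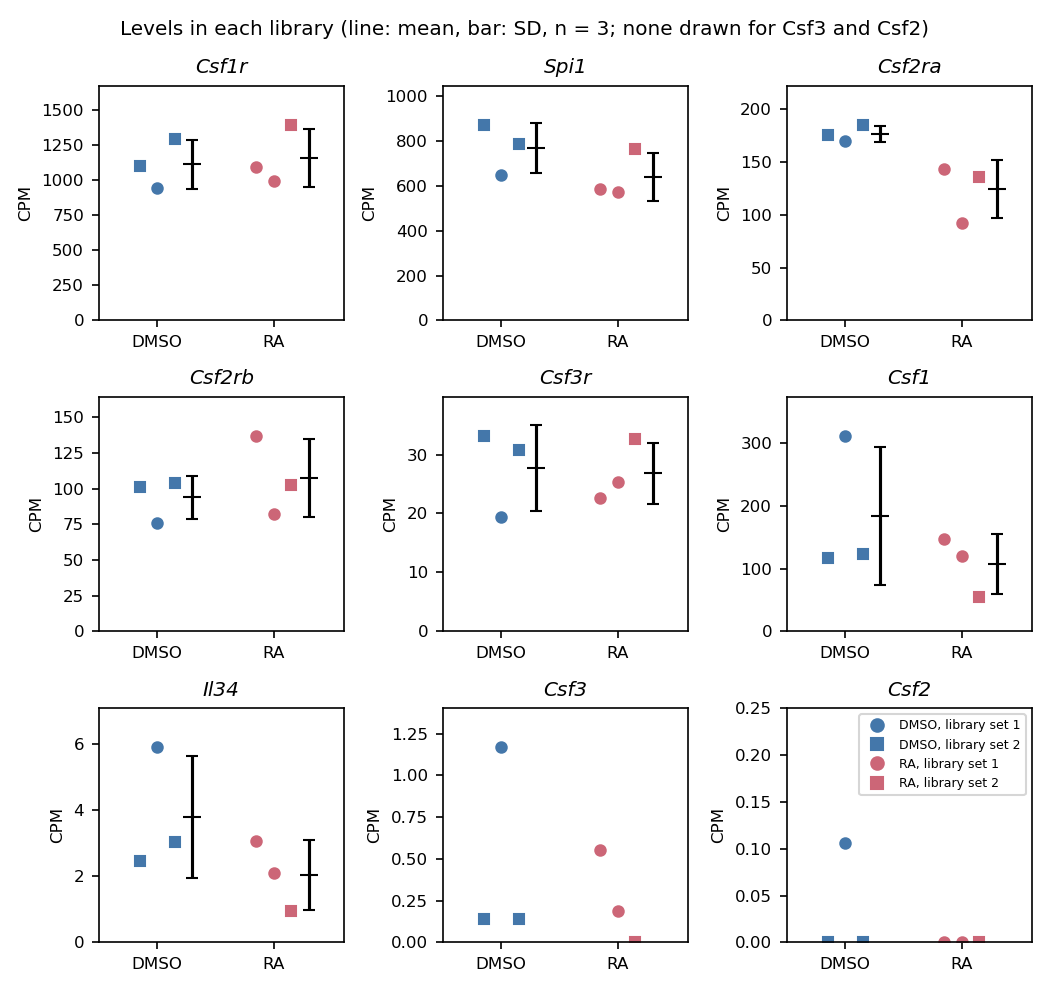
CPM of the 9 genes in each library, with the mean and SD of each group of 3 beside the points except for Csf3 and Csf2, whose counts are near 0. Every axis starts at 0. Blue is DMSO, red is RA, circles are library set 1 and squares set 2. Only Csf2ra keeps all RA libraries below all DMSO libraries, and DMSO 2 is the highest library for Csf1, Il34, Csf3 and Csf2.

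Over the axis as a whole, 0 of the 7 tested genes passed an adjusted p under 0.05 and a 1.5-fold change in edgeR's test of RA against DMSO, against 0.0433% of all 13842 genes. At an unadjusted p under 0.05 with no fold threshold it was Csf2ra alone, beside 5.25% of all tested genes. With the 1.5-fold threshold added it was 0 of the 7, beside 491 of all 13842 genes. DESeq2 called 0 of the 7, beside 136 of all 13842 genes. Of the 7, 5 had a lower and 2 a higher mean after RA, with a median log2 fold change of -0.26 beside -0.02 over all tested genes. Within both library sets every RA library lay below the DMSO libraries of its set for 4 of the 7 (Csf1, Il34, Csf2ra and Spi1), as it did for 23.5% of all tested genes. The width of the intervals differed among them. For Csf1r, Csf2ra, Csf2rb and Spi1 the standard error was at most 0.22, while for the ligands Csf1 and Il34 it was 0.50 and 0.51.

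**Figure D4:**
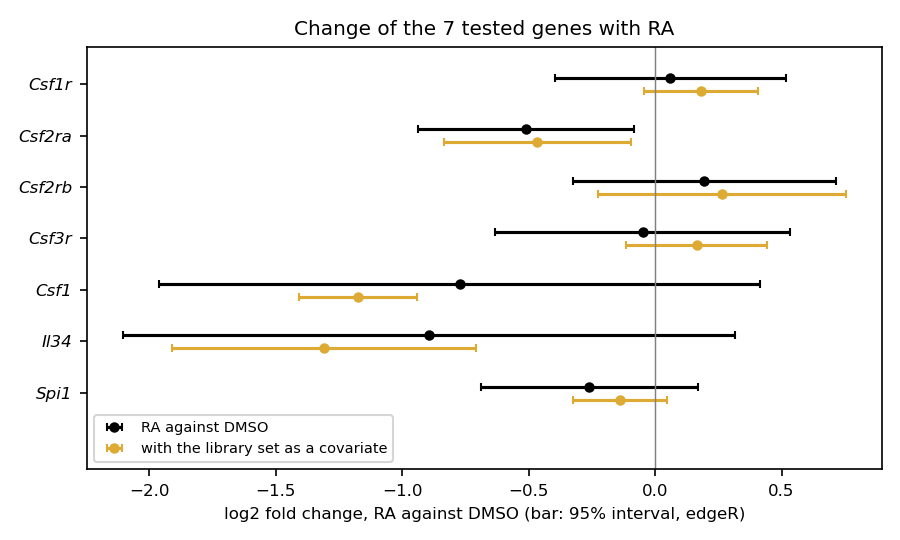
Log2 fold change of RA against DMSO for the 7 tested genes, with 95% intervals from edgeR, without (black) and with (yellow) adjustment for library set. The interval of Csf1 narrows from -1.96 to 0.42 without the adjustment to -1.41 to -0.94 with it, and those of Csf1r, Csf2rb, Csf3r and Spi1 cross 0 in both.

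The spread over all 6 libraries set ligands and receptors apart. The SD of log2 CPM was 0.80 for Csf1 and 0.81 for Il34, at the 92.4 and 92.6 percentiles of tested genes, and between 0.22 and 0.37 for the receptors and Spi1, at the 35.8 to 64.0 percentiles. The genes whose pattern over the 6 libraries was most like Csf1 were Capn2, Thbs1, Trim16, Rnd3 and Tln2, with Pearson r of log2 CPM from 0.993 to 0.998. Thbs1, which encodes the matrix protein thrombospondin-1, had 2367 CPM in DMSO 2 and 755 in RA 3. Those most like Csf1r were Zkscan17, Shb, Gm44597, Tm9sf2 and Sirpb1c (r from 0.988 to 0.994), and those most like Spi1 were Rnasek, Il4ra, 4931414P19Rik, Gak and Cd81 (r from 0.997 to 0.999). Il4ra, a chain of the IL-4 receptor, had 585.5, 352 and 486.5 CPM in DMSO and 314, 297 and 475 CPM in RA. These values describe 6 libraries that fall into 2 sets and carry no test.

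Among the genes through which the receptors signal, 23 of 23 were tested and 0 were called, with a median log2 fold change of -0.19, or -0.08 after adjustment for library set. The highest in CPM were the phosphatase Ptpn6 and the kinases Syk and Lyn, at 684 ± 71.8, 684 ± 78.6 and 596 ± 48.3 CPM in DMSO and 635 ± 64.4, 601 ± 94.3 and 588 ± 69.9 in RA (SD, n = 3 each). In this list 2 of the 23 genes had an unadjusted p under 0.05, both lower, beside 5.25% of all tested genes in either direction. Src, a kinase recruited to activated CSF1R, had 38.3 ± 4.60 CPM in DMSO and 25.3 ± 6.35 in RA (log2 fold change -0.60, edgeR adjusted p = 0.795). Stat5a, which GM-CSF activates, had 30.7, 32.1 and 30.7 CPM in DMSO and 27.7, 24.7 and 22.7 CPM in RA (log2 fold change -0.32, edgeR adjusted p = 0.795).

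Of 14 transcription factors of the myeloid lineage, 12 were tested and 0 were called, with a median log2 fold change of -0.13, which turned to 0.07 after adjustment for library set. Maf, Ikzf1 and Cebpb were the highest in CPM, and Maf spread widely, at 1016 ± 359 CPM in DMSO and 825 ± 313 in RA. Klf4 had 12.3 ± 2.18 CPM in DMSO and 8.33 ± 0.186 in RA, with non-overlapping groups (log2 fold change -0.57, edgeR adjusted p = 0.795). Groups did not overlap in 12.6% of all tested genes. Of 20 genes known as PU.1 targets, all were tested and 0 were called, and their median was -0.08, or 0.008 after that adjustment. Lyz2, Adgre1 and Itgam, the highest of them in CPM, are macrophage markers as well, and Lyz2 had 7317 ± 2200 CPM in DMSO and 7994 ± 1677 in RA. Tlr4, the lipopolysaccharide receptor, had 42.4, 48.2 and 54.3 CPM in DMSO and 69.3, 67.7 and 63.8 CPM in RA (log2 fold change 0.47, edgeR adjusted p = 0.602). Itgam, which encodes CD11b, had 1417, 1429 and 1447 CPM in DMSO and 1732, 1809 and 1513 CPM in RA (log2 fold change 0.24, edgeR adjusted p = 0.795), and Adgre1, a surface receptor of macrophages, 5759 ± 659 and 4905 ± 734 CPM (log2 fold change -0.23, edgeR adjusted p = 0.803). Over the 15 macrophage markers the sum was 11159 to 12464 RPKM in DMSO and 11432 to 11926 RPKM in RA, 0 were called and the median log2 fold change was -0.10, or -0.02 after adjustment for library set. This sum hides opposite patterns between the library sets. Lyz2 had 8722 to 9779 CPM in set 1 and 5543 to 6629 in set 2. Adgre1 had 4463 to 5066 CPM in set 1 and 5752 to 6379 in set 2. A level sum is therefore no sign of equal macrophage RNA in all libraries.

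Of 19 related cytokines and receptors, 14 were tested and 0 were called. Kitl, the ligand of Kit and a factor for blood stem cells, had 11.8 ± 1.24 CPM in DMSO and 7.65 ± 0.514 in RA (SD, n = 3 each), without overlap (log2 fold change -0.62, unadjusted p = 0.00775 and adjusted p = 0.600 from edgeR). Such a separation was seen in 12.6% of all tested genes. Tnfsf11, the RANK ligand that acts with CSF-1 on osteoclast precursors, had 0, 15 and 4 counts in DMSO and 59, 23 and 12 counts in RA (log2 fold change 2.28, edgeR adjusted p = 0.795). Its receptor Tnfrsf11a had 191.6 ± 49.1 and 179.3 ± 18.1 CPM, and Trem2 and Sdc1, the next highest of this list, had log2 fold changes of -0.27 and -0.35. Il6 had 219 counts in DMSO 2 and between 2 and 43 in the other libraries. After adjustment for library set it was the 1 gene of this list called, with a log2 fold change of -2.19 (edgeR adjusted p = 0.00636). Of the 8 osteoclast markers, 6 were tested and 4 had a lower mean after RA, with a median log2 fold change of -0.32, or -0.03 after adjustment for library set. Nfatc1 had -0.27 and Acp5 -0.39. Mmp9, with an edgeR adjusted p of 0.795 without the adjustment, was called higher with it, with a log2 fold change of 0.88 (edgeR adjusted p = 0.0167) and 86.5 ± 52.1 CPM in DMSO and 228 ± 120 in RA (SD, n = 3 each), with overlapping groups. DESeq2 called 0 genes in each of the lists of signalling genes, transcription factors, PU.1 targets, related cytokines, macrophage and osteoclast markers, beside 136 of all 13842 genes. At an unadjusted p under 0.05 edgeR gave 1 of 12 tested transcription factors (Klf4) and 1 of 20 PU.1 targets (Tlr4). It gave 2 of 14 related cytokines (Kitl and Tnfsf11), 1 of 6 osteoclast markers (Mmp9) and 0 of 15 macrophage markers. The share over all tested genes was 5.25%.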

How the data were processed

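The authors deposited a table of raw, unscaled read counts for each library. The submitters' processing notes name Bowtie2 2.2.3 and mm10, and the counting program, its annotation and strand setting are not given in the sources used here. Of 25722 gene identifiers, 25706 were found in GENCODE M21 (GRCm38), which gave coordinates and merged exon lengths, and 24 names turned into dates were restored from it. Counts were analysed in R 4.3.3 with edgeR 4.0.16 (TMM, filterByExpr, quasi-likelihood F test, Benjamini-Hochberg over 13842 genes), 3 RA against 3 DMSO libraries without covariates, and called at an adjusted p under 0.05 and at least 1.5-fold. Log2 CPM used a prior count of 2. Intervals are 95%, from the standard error, and cover the fit's spread. Totals of 14737636 to 18511905 counts leave little counting error except for Il34, Csf2 and Csf3, and such error covers counting only.

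The members and gene lists were chosen with earlier results of these data known. Always named were the members and Csf2rb2, then from each list called genes, up to 4 of unadjusted p under 0.05 and the 3 highest, and the 5 genes most like Csf1r, Csf1 and Spi1. A gene that this rule names among the retinoid response genes is not reported here. Genes called after adjustment for library set were named after their values were seen. Alternatives tried were each library left out in turn, adjustment for library set, the replicate block, DESeq2 1.42.0, 2 scalings, 2 filters, an unadjusted p and the longest transcript as length, and, added after seeing the data, leaving out each library from the fit adjusted for library set. Promoters were matched by symbol, and those of Csf1r, Il34, Csf2rb, Csf3 and Spi1 were not used here.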

Additional observations from a re-analysis of the deposited data

How the results depend on the processing

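For RA against DMSO, the number of called genes over all 13842 moved from 6 (5 higher, 1 lower) to 136 with DESeq2 (98 higher, 38 lower), 491 with an unadjusted p (295 and 196), 20 without a filter (17 and 3) and 213 after adjustment for library set (103 and 110). No gene was called lower with the replicate block or with scaling by library size alone (0 each). Leaving out 1 library gave 0 to 6 called genes, 0 to 6 higher and 0 lower. The cause was not tested.

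The count of called members was 0 in each of these fits, with any 1 library left out included, except after adjustment for library set, where it was 1 (Csf1). With that adjustment and 1 library left out it was 1 to 2, with Il34 as the other without RA 2, and 36 to 420 genes were called in all. The members' median of -0.26 was -0.51 without a filter, where Csf2 and Csf3 joined the list, and between -0.41 and -0.12 otherwise.

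The sign turned for Csf3r, to 0.16 with that adjustment and 0.30 and 0.031 within sets 1 and 2, and with 1 library left out it ran from -0.24 to 0.10. For Csf1r that range was -0.094 to 0.18, and for Csf2rb2 -0.031 to 0.43. Scaling by library size alone moved the median of all genes from -0.02 to 0.03.

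The replicate numbers did not pair the libraries, since deviations of same-numbered libraries correlated at -0.510, 0.343 and 0.572. With the replicate block Csf1 had -0.75, Csf2ra -0.53 and Il34 -0.92, each with an edgeR adjusted p of 0.714 and uncalled. For Csf2 and Csf3, depth allows no comparison.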
